A study of Mus musculus with 13 samples.

Results

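The protein-coding mouse genes whose symbols begin with Eif1, Eif2, Eif3, Eif4, Eif5 or Eif6 numbered 56 of 21883 protein-coding genes on the placed chromosomes, and they encode the translation initiation factors together with their close relatives, kinases and inhibitors. The rule that picked them uses the symbol and no measured value. ChIP-seq peaks of the co-repressors NCoR and SMRT and of the acetylated histone mark H3K27ac were counted where a peak centre lay within 1 kb of either annotated end of the gene. The 12 peak lists came from 1 library per group. Embryonic stem cells (ESCs) of strain C57BL/6J gave NCoR, SMRT and H3K27ac lists. Mouse embryonic fibroblasts (MEFs) of strain C57BL/6J-OG2, which carries an Oct4-GFP reporter, gave an H3K27ac list. Fibroblasts of the same strain that had received OCT4, SOX2, KLF4 and c-MYC (OSKM) gave NCoR and SMRT lists at day 9, with no further plasmid named. OSKM samples labelled as having also received a FLAG control plasmid or HDAC3-YF, a mutant of the deacetylase HDAC3 that lacks its enzyme activity, gave H3K27ac lists at days 5, 9 and 13. OSKM cultures are mixtures of cells at different stages, and ESCs and MEFs differ in strain as well as cell type, which cannot be told apart here. With 1 library per group no difference could be tested, and a peak that is missing from a list was only not called there.

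Translation initiation begins when the factor eIF2, bound to GTP and the initiator tRNA, joins the small ribosomal subunit with eIF1, eIF1A, eIF3 and eIF5. The cap-binding complex eIF4F (the cap-binding protein eIF4E, the scaffold eIF4G and the helicase eIF4A) brings the mRNA, 4E-BP proteins block eIF4E, and stress kinases that phosphorylate eIF2 stop its recycling by eIF2B. NCoR and SMRT are scaffold proteins that bind and activate HDAC3 and are known for repressing genes, whereas H3K27ac marks active promoters and enhancers. Initiation factor genes are transcribed in nearly all cells, and several of them, Eif4e among them, are textbook c-MYC targets through the E-box CACGTG.

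The promoters of 6 genes with NCoR or SMRT peaks in most of the 4 co-repressor lists are shown first, because their co-repressor peaks lie within 1 kb of these starts, followed by the E-boxes of Eif4e. The sequences are from RefSeq, build GRCm38.p6 (the coordinates of mm10), and are written 5′ to 3′ on the gene's strand. They hold the bases upstream of the listed start, for Eif4ebp2 only those outside the annotated gene. Capitals mark the E-box CACGTG and the GC box GGGCGG on either strand. The 6 windows are chr5:143817542-143817791 (plus strand) for Eif2ak1, chr19:60790694-60790943 (minus) for Eif3a, chr5:140419055-140419304 (plus) for Eif3b, chr1:87213661-87213910 (plus) for Eif4e2, chr10:61452791-61452919 (minus) for Eif4ebp2 and chr5:134639410-134639659 (minus) for Eif4h. Both Eif4e stretches lie upstream of its second listed start at position 138527268 on chromosome 3, plus strand, at chr3:138527028-138527057 and chr3:138527192-138527221.
Eif2ak1: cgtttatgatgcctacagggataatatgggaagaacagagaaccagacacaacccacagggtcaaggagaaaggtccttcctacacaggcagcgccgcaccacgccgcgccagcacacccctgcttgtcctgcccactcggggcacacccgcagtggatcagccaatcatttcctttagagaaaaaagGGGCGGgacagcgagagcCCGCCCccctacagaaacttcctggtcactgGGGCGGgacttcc
Eif3a: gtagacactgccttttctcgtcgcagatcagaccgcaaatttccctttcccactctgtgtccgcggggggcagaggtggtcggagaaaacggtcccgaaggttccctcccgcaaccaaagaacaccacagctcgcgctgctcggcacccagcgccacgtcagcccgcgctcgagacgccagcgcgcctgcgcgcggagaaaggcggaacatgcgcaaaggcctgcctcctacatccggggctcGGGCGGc
Eif3b: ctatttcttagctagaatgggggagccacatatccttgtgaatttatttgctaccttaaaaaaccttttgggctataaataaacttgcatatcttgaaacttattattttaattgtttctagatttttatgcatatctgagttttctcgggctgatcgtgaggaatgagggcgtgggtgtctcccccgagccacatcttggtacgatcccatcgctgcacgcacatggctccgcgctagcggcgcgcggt
Eif4e2: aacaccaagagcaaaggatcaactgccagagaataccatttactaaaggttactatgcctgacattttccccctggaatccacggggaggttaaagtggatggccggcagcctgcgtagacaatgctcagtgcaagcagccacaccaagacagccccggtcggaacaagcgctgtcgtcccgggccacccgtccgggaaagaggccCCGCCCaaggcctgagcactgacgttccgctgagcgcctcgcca
Eif4ebp2: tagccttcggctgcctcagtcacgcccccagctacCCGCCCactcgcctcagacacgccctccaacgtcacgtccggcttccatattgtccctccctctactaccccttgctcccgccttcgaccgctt
Eif4h: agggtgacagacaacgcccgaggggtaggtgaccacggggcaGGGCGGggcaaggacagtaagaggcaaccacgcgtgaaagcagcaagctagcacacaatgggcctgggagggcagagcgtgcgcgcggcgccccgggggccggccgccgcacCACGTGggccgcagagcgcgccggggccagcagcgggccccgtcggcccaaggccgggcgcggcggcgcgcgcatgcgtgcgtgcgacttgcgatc
Eif4e E-box 228 bases upstream: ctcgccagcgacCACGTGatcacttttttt
Eif4e E-box 64 bases upstream: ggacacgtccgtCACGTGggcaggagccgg

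H3K27ac was present at most initiation factor genes in every population. A peak lay at an end of 49 of the 56 genes in ESCs (48.6% of all protein-coding genes), 50 in MEFs (48.2%), 46 at day 5 with FLAG (42.2%) and 46 with HDAC3-YF (40.8%). The counts at day 9 were 49 with FLAG (43.1%) and 48 with HDAC3-YF (42.1%), and at day 13 they were 47 (42.5%) and 50 (43.9%). A peak in all 8 lists was found for 44 of the 56 genes, or 78.6%, beside 32.7% of all genes. Without the day 13 lists, whose scores were lower, 45 genes (80.4%) had a peak in the remaining 6 lists, beside 35.3% of all genes. Another 8 genes had a peak in 1 to 7 lists (24.4% of all genes), and 4 had none in any list (42.9% of all genes).

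**Figure D1:**
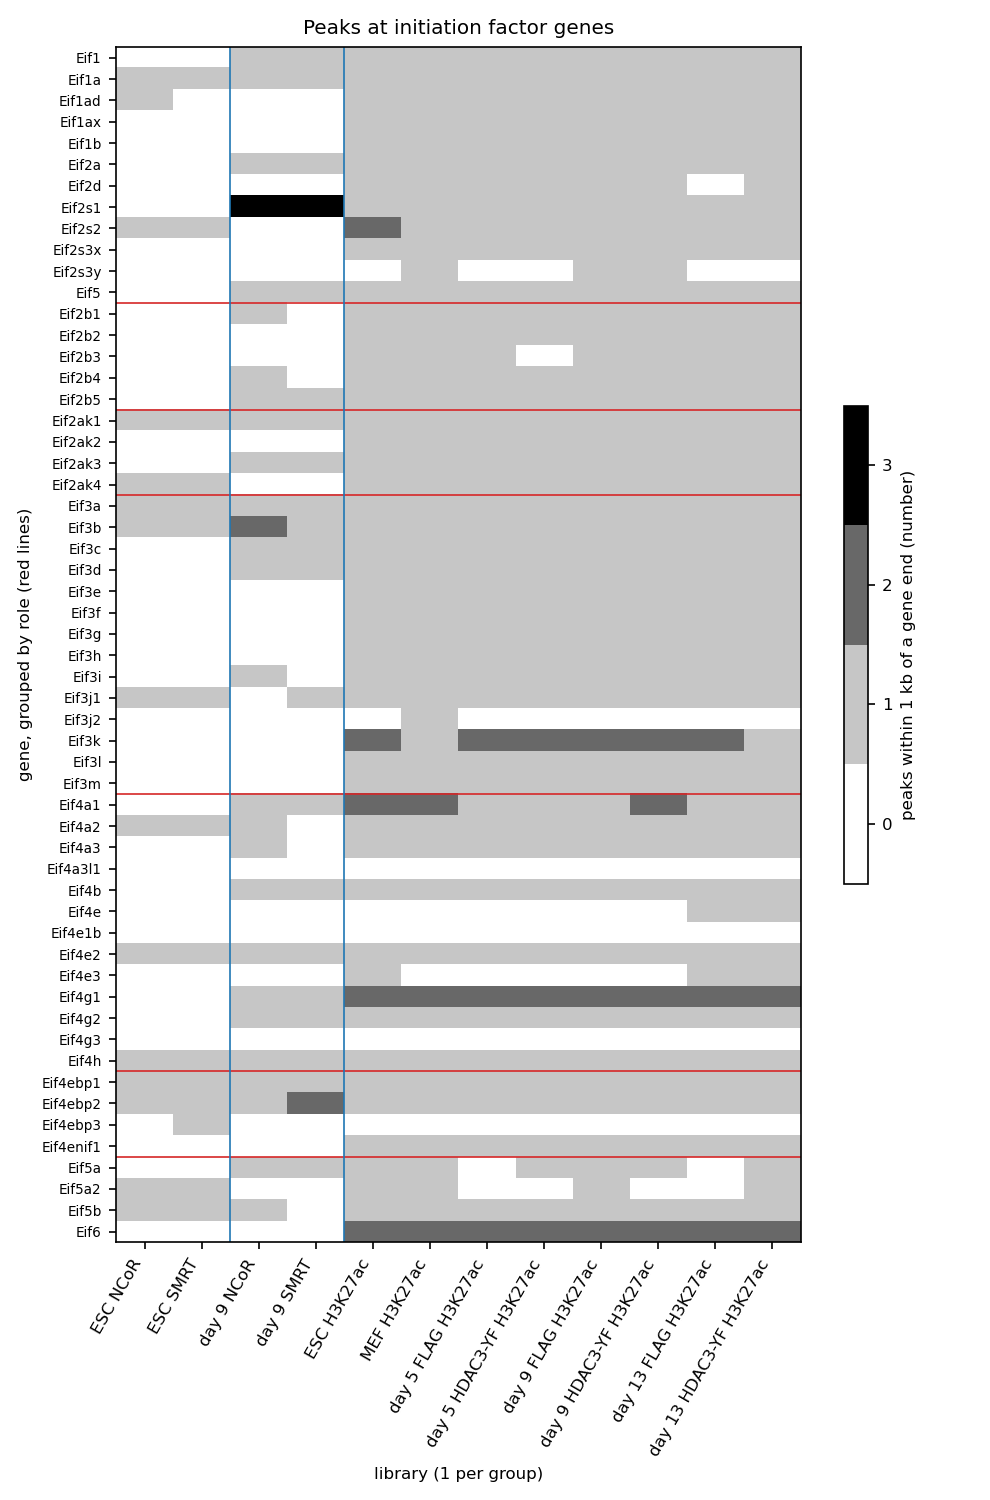
Number of peaks (grey scale) within 1 kb of an annotated end of each of the 56 genes (rows, grouped by role) in each of the 12 libraries (columns, 1 library per group). The 8 H3K27ac columns are filled for 44 genes, whereas the NCoR and SMRT columns are filled for 15 to 27 genes each.

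The peak lists themselves were of unequal length. The NCoR and SMRT lists held 3687 to 5179 peaks, and the H3K27ac lists 25499 in ESCs, 26591 in MEFs and 14251 to 16944 in the OSKM cultures. The deposited H3K27ac score, whose scale is not stated, ends at a ceiling of 200, which 24.4% of ESC peaks and 25.9% of MEF peaks reached, 9.06% to 11.9% at days 5 and 9, and 1.67% and 2.11% at day 13. H3K27ac lay at 6 of 8 ESC marker genes in ESCs and 2 in MEFs, and at 1 and 5 of 8 fibroblast marker genes. Epithelial markers had it at 4 of 5 genes in ESCs and 0 in MEFs. Of 3 endothelial and 2 blood markers, 1 each was marked in ESCs and 1 each in MEFs, the endothelial ones being different genes. The part of other cell types in the values below was not tested.

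The start codon and ternary complex group held 12 genes, of which 10 had H3K27ac in all 8 lists (32.7% of all genes). Eif2s1 and Eif2s2, the alpha and beta subunits of eIF2, were among them, as was Eif2s3x, the X-linked copy of the gamma subunit. Eif2s1 and Eif2s3x had exactly 1 peak in each of the 8 lists. Eif2s2 had 1 peak in 7 lists and 2 in ESCs, where the additional peak (score 24.39) lay at the far end of the gene, 807 bp from an end of Raly. Eif2s3y, the Y-linked gamma subunit, had a peak with a score of 13.00 in MEFs, 6.78 (FLAG) and 7.34 (HDAC3-YF) at day 9, and none in ESCs or at days 5 and 13. The day 9 scores were close to the lowest of their lists (6.71 and 6.69), and chromosome Y held 0 to 4 peaks in any of the 12 lists. Eif2s3x and Eif2s3y are close copies, so short reads from one may have been placed at the other. Eif2d, an alternative tRNA delivery factor, had a peak in 7 lists and lacked one at day 13 with FLAG, where the nearest lay 14460 bp away.

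All 5 subunit genes of eIF2B, the exchange factor that recycles eIF2, had H3K27ac, and 4 of them in all 8 lists (32.7% of all genes). Eif2b3 was the exception and lacked a peak at day 5 with HDAC3-YF. Its scores were 82.70 in ESCs and 200 in MEFs, 12.36 at day 5 with FLAG, 25.27 (FLAG) and 14.24 (HDAC3-YF) at day 9, and then 13.91 (FLAG) and 10.78 (HDAC3-YF). All 4 eIF2 kinase genes had a peak in all 8 lists (32.7% of all genes). They are Eif2ak1 (HRI, which senses heme), Eif2ak2 (PKR, which senses double-stranded RNA), Eif2ak3 (PERK, which senses stress in the endoplasmic reticulum) and Eif2ak4 (GCN2, which senses lack of amino acids). Of the genes with a peak in every list, Eif2ak2 had the lowest median score over the 6 OSKM lists, 12.67, with a range from 10.01 to 17.17. Eif2ak1 ranged from 14.02 to 53.17 there, Eif2ak3 from 17.44 to 131.92 and Eif2ak4 from 30.37 to 124.69.

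For eIF3, the large scaffold of the initiation complex, 13 of 14 subunit genes had H3K27ac in all 8 lists (32.7% of all genes). The one without was Eif3j2, a short gene that is a close copy of Eif3j1, with a single peak in MEFs (score 11.59). Short reads of one copy may have been placed at the other. Eif3a reached the score ceiling of 200 in all 6 OSKM lists, whereas Eif3l stayed between 13.57 and 62.64 and Eif3g between 15.77 and 93.58.

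In the cap complex and helicase group, 8 of 13 genes were marked in all 8 lists (32.7% of all genes) and 3 in none (42.9%). Eif4a1 and Eif4a2, the helicases of eIF4F, had a score of 200 at the promoter in all 6 OSKM lists, as did Eif5, which stimulates GTP hydrolysis by eIF2. Eif4g1, the main scaffold, had 2 peaks in each of the 8 lists, 1 at each end of the gene, the far one 120 to 480 bp from an end of Fam131a. Eif4g2, which lacks the eIF4E binding part of the scaffold, had 1 peak in each. Eif4e3, a cap-binding relative of Eif4e, had a peak in ESCs (score 200) and at day 13 with FLAG (13.61) and HDAC3-YF (20.11), but none in MEFs or at days 5 and 9. An end of Gpr27 lay 349 to 647 bp from those 3 peaks. The genes with no peak of any kind in the 12 lists were Eif4a3l1, a copy of Eif4a3, Eif4e1b, an oocyte relative of Eif4e, and Eif4g3. At Eif4e1b an H3K27ac peak lay just outside the limit, 1223 to 1477 bp from the gene end, in 7 of the 8 lists, and an ESC NCoR peak lay at 1120 bp.

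Eif4g3 and Eif4e were missed because their H3K27ac peaks lay beside an inner start. RefSeq lists 2 starts for each. The peak nearest to Eif4e lay between 919 and 1447 bp from the gene end, so that it counted only at day 13, when it was 919 bp (FLAG) and 987 bp (HDAC3-YF) away. From the nearer listed start the same peaks lay 370 bp away in ESCs and 34 bp in MEFs. In the FLAG cultures the distance was 6, 28 and 157 bp at days 5, 9 and 13, and in the HDAC3-YF cultures 41, 37 and 89 bp. Their score was 200 in 6 of these lists, and 58.32 (FLAG) and 63.15 (HDAC3-YF) at day 13. Eif4e thus had H3K27ac beside its second start in all 8 lists, and both of its E-boxes shown above lie upstream of that start. For Eif4g3 the distance was 1854 to 2022 bp from the gene end and 177 to 345 bp from a listed start. RefSeq entries with starts and strand were found for 44 of the 56 genes and for 17491 genes in all. Counted at listed starts, 40 of these 44 genes (90.9%) had H3K27ac in all 8 lists, beside 36.5% of all genes with an entry.

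**Figure D2:**
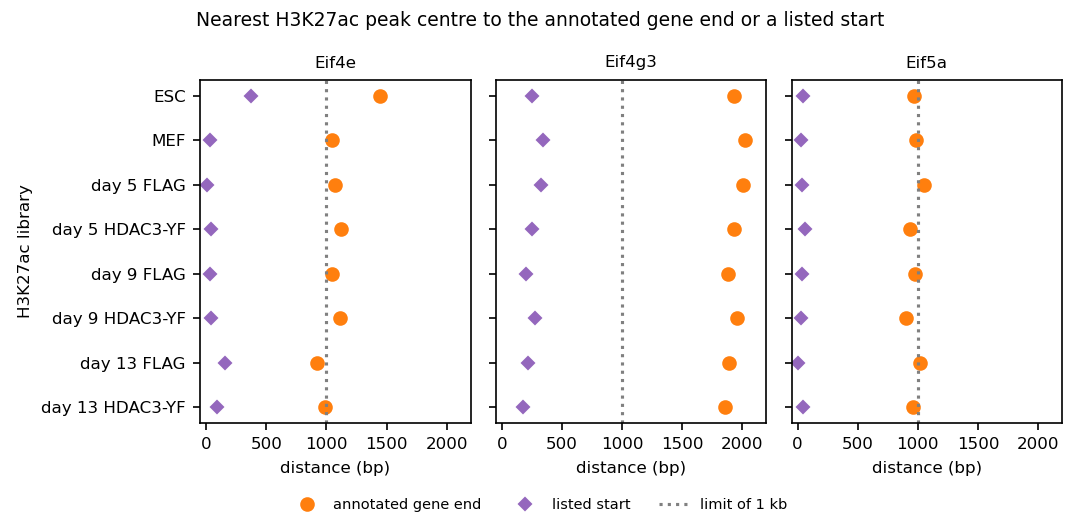
Distance in bp from the nearest H3K27ac peak centre to the annotated gene end (circles) or to the nearest listed start (diamonds) for Eif4e, Eif4g3 and Eif5a in the 8 H3K27ac libraries. All diamonds lie within 370 bp, whereas the circles lie around or beyond the 1 kb limit (dotted line).

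Of the 4 genes that block or move eIF4E, 3 had H3K27ac in all 8 lists (32.7% of all genes). They were Eif4ebp1, Eif4ebp2 and the transporter Eif4enif1. Eif4ebp3 had none, with the nearest H3K27ac peak at least 3796 bp away. The last group held Eif5a and Eif5a2, which help the ribosome through difficult peptide bonds, Eif5b, which joins the ribosomal subunits, and Eif6, which keeps them apart. Eif5b and Eif6 were marked in all 8 lists (32.7% of all genes), and Eif6 had 2 peaks in each. In every list 1 of these 2 peaks lay 85 to 341 bp from an end of the neighbouring gene BC029722. Eif5a2 had scores of 35.76 in ESCs, 39.60 in MEFs, 11.64 at day 9 with FLAG and 22.04 at day 13 with HDAC3-YF, and no peak in the other 4 lists.

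The rank of the scores within each list was used to set the genes beside others. Among the 44 genes marked in all 8 lists, the median percentile of the best peak was 87.8 in ESCs and 87.1 in MEFs, the ranks of the ceiling itself, the same as for all 7155 genes marked in all 8 lists. In the OSKM lists their median lay above that of those genes, at 85.0 beside 75.5 (day 5 FLAG), 83.3 beside 76.5 (day 5 HDAC3-YF), 81.6 beside 76.5 (day 9 FLAG) and 82.0 beside 74.9 (day 9 HDAC3-YF). On day 13 their median was 77.5 beside 74.0 with FLAG and 78.1 beside 73.2 with HDAC3-YF. The share of the 44 genes at the ceiling was 81.8% in ESCs and 93.2% in MEFs, beside 69.8% and 80.0% of all genes marked in all 8 lists. At days 5 and 9 it was 38.6% to 43.2%, beside 20.0% to 24.8%, and at day 13 it was 13.6% (FLAG) and 15.9% (HDAC3-YF), beside 3.07% and 3.55%. Fewer peaks of any gene reached the ceiling at day 13, and no background library was used to place the lists on 1 scale.

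**Figure D3:**
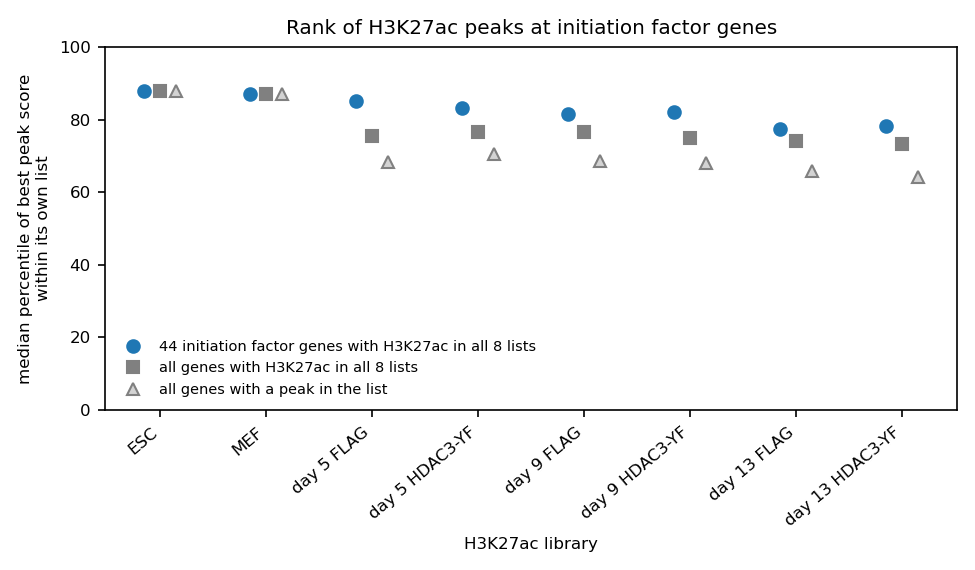
Median percentile of the best H3K27ac peak score within its own list (vertical axis) in each H3K27ac library, for the 44 initiation factor genes and for all genes with a peak in all 8 lists, and for all genes with a peak in that list. The 44 genes lie between 77.5 and 85.0 in the 6 OSKM libraries, and in ESCs and MEFs the sets meet at the rank of the ceiling.

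NCoR or SMRT lay at 16 of the 56 genes in ESCs (28.6%, beside 14.2% of all genes) and at 28 in the day 9 OSKM cultures (50.0%, beside 21.5%). With a window of 500 bp in place of 1 kb, the ESC count was 10 (17.9%, beside 10.9% of all genes). By list, 15 genes had an ESC NCoR peak (11.3% of all genes), 15 an ESC SMRT peak (12.6%), 27 a day 9 NCoR peak (20.0%) and 22 a day 9 SMRT peak (18.1%). The NCoR and SMRT lists share intervals and their scores, as described below. NCoR and SMRT lay at the same gene for 14 genes in ESCs (9.74% of all genes) and 21 at day 9 (16.6%). That was 14 of the 16 with any ESC peak (68.5% of all such genes) and 21 of the 28 with any day 9 peak (77.2%). Peaks in both populations were found at 11 genes (7.84%), at day 9 only at 17 (13.7%), in ESCs only at 5 (6.38%) and in neither at 23 (72.1%). The 11 genes were 68.8% of those with an ESC peak and 39.3% of those with a day 9 peak, and the same shares for all genes were 55.1% and 36.5%.

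The comparison with all genes changed when only acetylated genes were considered. Of the genes marked by H3K27ac in all 8 lists, an ESC co-repressor peak lay at 14 of 44 initiation factor genes (31.8%) and at 32.8% of all 7155 genes. At day 9 it lay at 27 of 44 (61.4%) and at 56.0%, and in both populations at 11 of 44 (25.0%) and at 21.9%. A peak in all 4 co-repressor lists was found at 8 of 44 (18.2%) and at 13.6%. The initiation factor genes were thus close to other constantly acetylated genes in each of these shares. Of the other 12 initiation factor genes, 2 had an ESC peak (5.21% of all other genes), 1 a day 9 peak (4.77%), 0 a peak in both populations (1.01%) and 0 a peak in all 4 lists (0.394%). The 12 include Eif4e, Eif4g3 and Eif5a, which had H3K27ac in all 8 lists when counted at listed starts. Counted that way, an ESC co-repressor peak lay at 13 of 40 constantly acetylated initiation factor genes (32.5%) and at 33.1% of all such genes. At day 9 it lay at 25 of 40 (62.5%) and at 56.3%. The background of acetylated genes was chosen after the data were seen. Of 28 other translation genes, which encode elongation and termination factors and regulators, 10 (35.7%) had a co-repressor peak in ESCs and 16 (57.1%) at day 9.

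**Figure D4:**
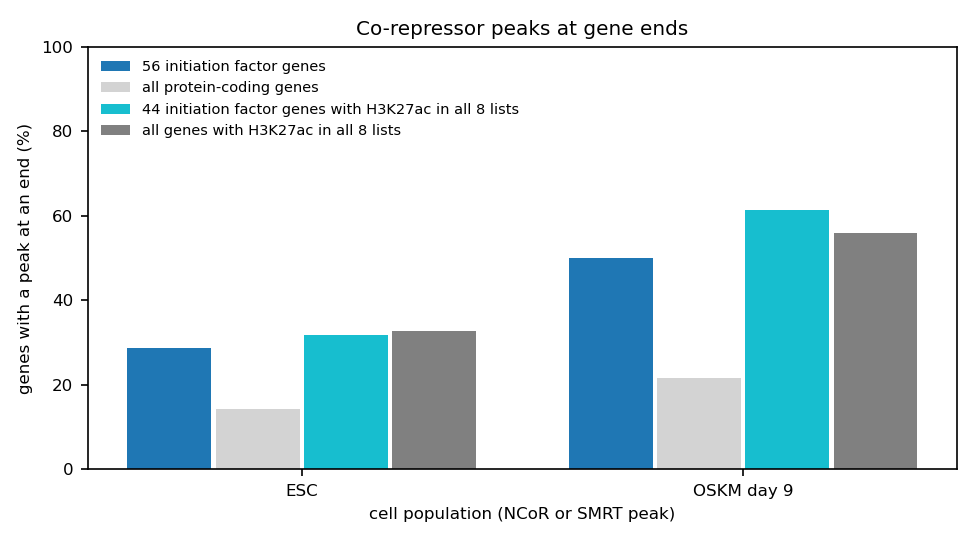
Share of genes (%) with an NCoR or SMRT peak within 1 kb of an end, in ESCs and in day 9 OSKM cultures, for the initiation factor genes and the background sets of the legend. The shares of the 56 genes, 28.6% and 50.0%, lie above those of all genes, 14.2% and 21.5%, and the shares of the constantly acetylated genes lie close together.

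Among the start codon and ternary complex genes, 5 of 12 had a day 9 peak (21.5% of all genes) and 3 an ESC peak (14.2%). For all genes with H3K27ac in all 8 lists these shares were 56.0% and 32.8%. Eif2s1 had 3 separate NCoR and SMRT sites at day 9, at chr12:78861317-78861516, chr12:78861744-78861943 and chr12:78862113-78862312, which is 655 and 228 bp upstream and 140 bp downstream of its start. At day 9, 3 initiation factor genes had 2 or more peaks of 1 kind (1.94% of all genes), namely Eif2s1, Eif3b and Eif4ebp2. Counted at listed starts, Eif5a too had 2 NCoR and 2 SMRT peaks, the nearest 8 bp from a start (score 0.39). Only 8 genes of all (0.0366%) had 3 NCoR and 3 SMRT peaks at day 9, a class that follows the count of Eif2s1 itself. Eif2s1 was the only initiation factor gene among them. An end of Atp6v1d lay 591, 164 and 204 bp from the 3 sites, so the same sites count for that gene too. The first 2 of the sites were nearer to Atp6v1d. Eif1, which guards start codon choice, had a site at chr11:100320137-100320336, 287 bp inside the gene. Eif5 had one 223 bp inside and Eif2a, another tRNA delivery factor, one 204 bp upstream and 267 bp from an end of Serp1, each in both day 9 lists. Eif2s2 had NCoR and SMRT only in ESCs, 448 bp inside the gene, and Eif1ad, a relative of Eif1a, had NCoR alone in ESCs, 276 bp from an end of its neighbour Banf1. Eif1a was the only gene of this group with peaks in all 4 lists, and its neighbour Tmed7 was closer to them.

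No eIF2B gene had a co-repressor peak in ESCs (14.2% of all genes), and 3 of 5 had one at day 9 (21.5%). Among all genes with H3K27ac in all 8 lists these shares were 32.8% and 56.0%, and 5 genes are few. Eif2b5, the catalytic subunit, had NCoR and SMRT 164 bp downstream of a listed start, and Eif2b1 and Eif2b4 had NCoR alone, 56 and 12 bp downstream. Gtf2h3 and Snx17 lay within 1 kb of these last sites. Of the eIF2 kinases, Eif2ak1 had peaks in all 4 lists, at chr5:143817824-143818023 in ESCs and chr5:143817864-143818063 at day 9, just downstream of the promoter shown. Eif2ak4 had them in ESCs only, Eif2ak3 at day 9 only, and Eif2ak2 in no list.

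The eIF3 subunit genes with a day 9 peak were Eif3a, Eif3b, Eif3c, Eif3d, Eif3i and Eif3j1, 6 of 14 (21.5% of all genes). Of these, 3 (Eif3a, Eif3b and Eif3j1) also had one in ESCs (7.84% of all genes had both). For all genes with H3K27ac in all 8 lists the shares were 56.0% at day 9 and 21.9% in both populations. At Eif3a, the largest subunit, the ESC site at chr19:60790067-60790266 lay 526 bp inside the gene, and the day 9 site at chr19:60790595-60790794 was centred 1 bp from the start and covered 101 bases of the promoter shown. Eif3b, a core subunit, had NCoR and SMRT at separate places in ESCs, with SMRT 658 bp upstream (chr5:140418547-140418746) and NCoR 389 bp downstream (chr5:140419595-140419794). At day 9 both shared a site 78 bp downstream, and NCoR had another 329 bp upstream. Eif3i had NCoR alone, nearer to Tmem234, and Eif3j1 had both in ESCs and SMRT alone at day 9. The other 8 eIF3 genes had no co-repressor peak (72.1% of all genes).

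In the cap complex group 8 of 13 genes had a day 9 peak (21.5% of all genes). Of these, 3 (Eif4a2, Eif4e2 and Eif4h) had one in ESCs too (7.84% of all genes had both). For all genes with H3K27ac in all 8 lists the shares were 56.0% at day 9 and 21.9% in both populations. Eif4a1, Eif4b, Eif4g1 and Eif4g2 had NCoR and SMRT at day 9 only, and Eif4a3, a helicase of the exon junction complex, had NCoR alone at day 9. Eif4b and Eif4h both assist the helicase Eif4a. At Eif4h the ESC site (chr5:134639099-134639298) and the day 9 site (chr5:134639103-134639302) were 4 bp apart, the closest pair of the 11 genes with peaks in both populations. Eif4e2, a cap-binding relative that represses translation, had NCoR and SMRT in both populations 228 bp apart. Eif4e itself had no co-repressor peak. The nearest lay 36563 bp (NCoR) and 36880 bp (SMRT) away in ESCs and 83016 bp away at day 9, also when measured from both listed starts. Eif4g3 had an ESC SMRT peak 183 bp from its inner start (score -1.15) and a day 9 NCoR and SMRT peak 346 bp from it, none of which counted from the gene ends.

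Of the genes that block or move eIF4E, 3 of 4 had an ESC peak (14.2% of all genes) and 2 a day 9 peak (21.5%). For all genes with H3K27ac in all 8 lists these shares were 32.8% and 56.0%. Eif4ebp1 and Eif4ebp2 had NCoR and SMRT in both populations, and Eif4ebp3 had SMRT alone in ESCs. At Eif4ebp2 the ESC site lay at chr10:61452424-61452623, and at day 9 SMRT had a further site at chr10:61452132-61452331 beside the shared one at chr10:61452612-61452811. Eif4enif1 had none. Of the last group, Eif5b had peaks in both populations, Eif5a at day 9 and Eif5a2 in ESCs, and Eif6 had none. The genes with a peak in all 4 lists were Eif1a, Eif2ak1, Eif3a, Eif3b, Eif4e2, Eif4ebp1, Eif4ebp2 and Eif4h, 8 of 56 (14.3%), beside 4.72% of all genes.

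Scores deposited for the co-repressor peaks have a sign, and an interval in both lists carries 1 score between -1 and 1. Scores over 1 went with intervals in the NCoR list alone and scores below -1 with the SMRT list alone. At the initiation factor genes list membership thus followed the score, so NCoR and SMRT at the same gene may not be independent calls. Away from them, on chromosome Y, the ESC NCoR interval nearest to Eif2s3y (score -0.85) was not in the SMRT list. A peak of 1 protein alone was only not listed for the other. At day 9, 6 genes had NCoR without SMRT (3.37% of all genes): Eif2b1 (score 1.76), Eif3i (1.37), Eif4a3 (1.42), Eif5b (1.16), Eif2b4 (1.14) and Eif4a2 (1.10). Eif3j1 alone had SMRT without NCoR (-1.60), beside 1.53% of all genes. Of the genes with a day 9 peak, NCoR alone made up 6 of 28 (15.7% of all such genes) and SMRT alone 1 of 28 (7.12%). The last 3 NCoR scores named lie close to 1, the border of the intervals in both lists. The ESC site of Eif1ad, in the NCoR list alone, also lies close to it (1.07).

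The sites were then placed relative to the starts. In ESCs 17 sites lay at 16 genes and at day 9 32 sites lay at 28 genes, of which 13 and 23 were in both lists. For the 14 and 28 sites whose gene has a listed strand, all lay at the start end and 0 at the far end. How often the co-repressor sites of all genes lie at the start end was not computed. In ESCs 13 of 14 lay downstream of the start, at a median of 344 bp. At day 9 19 of 28 lay downstream, at a median of 152 bp. These positions are of NCoR and SMRT sites together, from listed starts. For NCoR peaks alone, from the annotated start end, 100% of 13 in ESCs and 73.1% of 26 at day 9 lay downstream, with medians of 389 and 156 bp. The same values for all genes were 81.4% and 73.6%, with medians of 241 and 150 bp. Of the 11 genes with sites in both populations 6 had overlapping intervals. The share over all genes was not computed, so this count cannot be set beside other genes. Another gene end lay within 1 kb of 2 ESC sites and 9 day 9 sites.

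**Figure D5:**
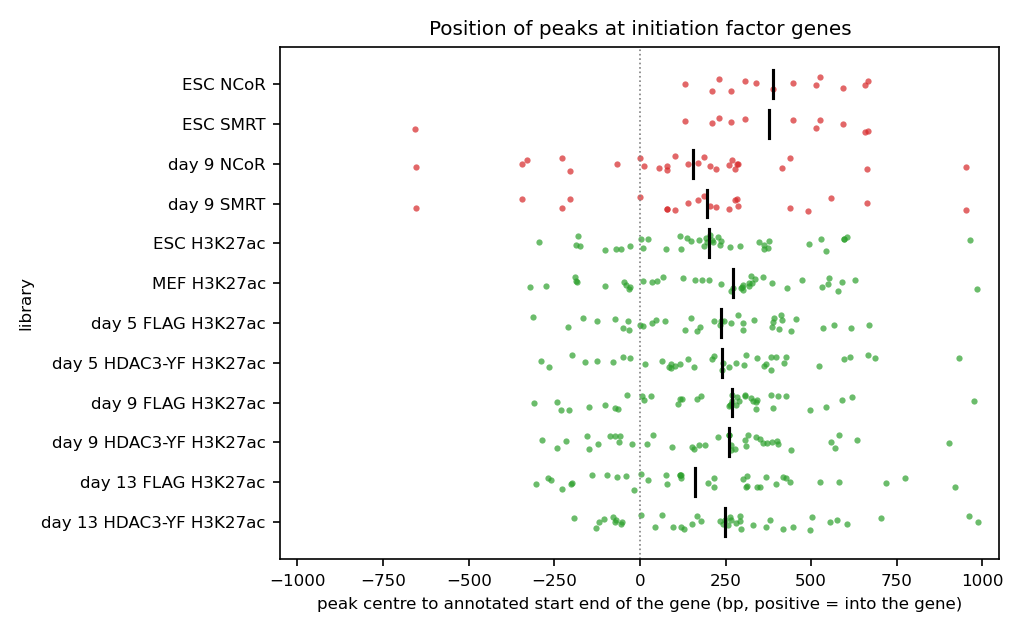
Distance in bp from the annotated start end of the gene to each peak centre (dots, positive into the gene) in the 12 libraries, for initiation factor genes with a known strand, with medians as black bars. ESC NCoR dots all lie inside the gene, with a median of 389 bp, and day 9 NCoR dots lie on both sides, with a median of 156 bp.

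Nearly all genes with a co-repressor peak also had H3K27ac. In ESCs 15 of 16 did (13.1% of all genes had both, and 92.3% of all genes with a co-repressor peak), the exception being Eif4ebp3. At day 9 28 of 28 did in the FLAG culture (20.2% and 94.1%) and 28 of 28 in the HDAC3-YF culture (20.0% and 93.0%). The labels of the NCoR and SMRT samples name neither plasmid, and whether they share a culture with the H3K27ac samples is not given. The site centres lay a median of 264 bp from the nearest H3K27ac centre in ESCs and 150.5 bp in the FLAG culture. The 200 bp intervals overlapped at 7 of 17 sites in ESCs, at 19 of 32 in the FLAG culture and at 18 of 32 in the HDAC3-YF culture. Genes with such an overlap were 7 (12.5%), 19 (33.9%) and 18 (32.1%) of the 56, beside 7.53%, 12.7% and 12.5% of all genes.

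HDAC3-YF and FLAG cultures had the same number of H3K27ac peaks at 50 of the 56 genes on all 3 days (89.3%, beside 81.8% of all genes). Equal counts were found at 54 genes on day 5 (93.6% of all genes), 54 on day 9 (92.9%) and 52 on day 13 (89.3%). The median difference was 0 on each day, for these genes and for all genes. At day 5, HDAC3-YF had 1 peak more at Eif5a (2.52% of all genes were higher) and 1 fewer at Eif2b3 (3.92% lower). At day 9 it had 1 more at Eif4a1 (3.02%) and 1 fewer at Eif5a2 (4.09%). At day 13 it had 1 more at Eif2d, Eif5a and Eif5a2 (6.05%) and 1 fewer at Eif3k, a subunit of eIF3 (4.66%). When only the highest-scoring 50% of each list was counted, 9 genes were higher and 2 lower with HDAC3-YF at day 13 (4.73% of all genes were higher), while other windows and ways of counting moved these small counts as well, between 0 and 4 genes. Marker genes of other cell states differed too, given here with FLAG and then HDAC3-YF. At day 13 H3K27ac lay at 1 and 3 of 8 ESC markers and at 4 and 2 of 8 fibroblast markers. It also lay at 3 and 5 of 5 epithelial markers and at 1 and 0 of 2 blood markers. At day 5 the counts were 2 and 2 for ESC, 3 and 5 for fibroblast and 1 and 0 for epithelial markers. At day 9 they were 2 and 3, 3 and 2, and 1 and 3. Their part in the differences was not tested. Only Eif5a differed in 1 direction on at least 2 days (3.19% of all genes). Its peak lay 1051 bp (FLAG) and 932 bp (HDAC3-YF) from the gene end at day 5, and 1017 and 962 bp at day 13, on either side of the 1 kb limit, while its distance from a listed start was 6 to 59 bp in all 8 lists. Counted at listed starts, Eif5a had 1 peak in each of the 8 lists and did not differ.

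The other differences were single peaks. At Eif4a1 the promoter peak had a score of 200 in both cultures, and the additional HDAC3-YF peak (score 17.86) lay at the far end, 216 bp from an end of Cd68. ESCs and MEFs had a peak there as well (23.69 and 11.60). At Eif3k the promoter peak, which also lies beside an end of Map4k1, was present in both cultures at day 13 (33.73 and 12.38), and the peak at the far end was called with FLAG only (15.55). At Eif2d the HDAC3-YF score was 23.83. Counted at listed starts, 0 of 44 genes differed at day 5, while 2.05% of all genes with an entry were higher and 3.65% lower. By the same count Eif5a2 was lower at day 9 (3.84% of all), and Eif2d and Eif5a2 were higher at day 13 (5.89%). Where both cultures had a peak at the same gene, the intervals overlapped at 42 of 45 genes on day 5 (93.3%, 90.5% of all such genes), 46 of 48 on day 9 (95.8%, 90.8%) and 46 of 47 on day 13 (97.9%, 89.1%).

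Between ESCs and MEFs, 51 of 56 genes had equal counts (91.1%, beside 87.0% of all genes). Higher in ESCs were Eif2s2, Eif3k and Eif4e3 (6.79% of all genes were higher), and lower were Eif2s3y and Eif3j2 (6.19%), each by 1 peak. The additional ESC peak of Eif3k (score 20.70) lay at the far end of the gene and was not called in MEFs. Eif4e3 went from a score of 200 in ESCs to a nearest peak 20941 bp away in MEFs. No gene differed by 2 or more.

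Sequence features were counted in the 300 bases around each listed start (250 upstream, 50 downstream) on both strands. A GC box GGGCGG was found at 32 of 44 genes (72.7%), beside 46.3% of all 17491 genes and 70.7% of the 5854 genes with an entry and H3K27ac in all 8 lists. The E-box CACGTG was found at 8 genes (18.2%), beside 7.91% and 11.2%. They were Eif1b, Eif3a, Eif3f, Eif3k, Eif4a1, Eif4g1, Eif4h and Eif5a2, and the E-box of Eif3a lies in the 50 bases after the start, not in the stretch shown. Of the genes with a day 9 co-repressor peak 4 of 24 had an E-box (16.7%, beside 11.2% of all genes with such a peak), and of those without one 4 of 20 (20.0%). A GC box was found at 20 of the 24 (83.3%, beside 71.8%) and at 12 of the 20 (60.0%). The ETS core CCGGAAG was found at 14 genes (31.8%), beside 11.9% and 23.7%, TGCGCA, part of the NRF1 motif, at 10 (22.7%), beside 10.1% and 17.9%, and CCAAT at 14 (31.8%), beside 39.2% and 37.8%. GATGGCG, the core of YY1, was found at 2 genes (4.55%, beside 4.45% and 8.30%), GGGTGTG, bound by KLF proteins, at 5 (11.4%, beside 8.00% and 7.81%), and the octamer ATGCAAA at 0 (beside 4.17% and 2.84%). The median number of CG pairs was 23.5, beside 13 and 24. Matches of different motifs may share bases. For Eif4e the first listed start was used, which has no E-box in its window.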

How the data were processed

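ChIP-seq peaks were analysed from 12 deposited lists, 1 library per group, grouped by title. The ESC input was not analysed here. The submitters' processing notes name Bowtie2 2.2.0, MACS 1.4 and mm10. Each list gives intervals of 200 bp with a score that the authors deposited. The scale of the score is not stated, its ceiling in the H3K27ac lists is 200, and read depth is unknown.

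Gene ends came from the RefSeq table of GRCm38.p6. A peak counted where its centre lay within 1 kb of either end. The 12 matching symbols of pseudogenes and non-coding genes were left out. Starts, strand and sequence came from the RefSeq promoter table (44 genes). The table gives no exons, so sites are placed only relative to starts and ends. Fold changes and p-values were not computed, as each group had 1 library. The members and lists were chosen with earlier results of these data known. Named genes were those with a co-repressor peak, those that differed between ESCs and MEFs or on at least 2 days between HDAC3-YF and FLAG, core eIF2 and eIF4F genes, and those without any peak, together with genes named beside a count of 5 or fewer. Other genes named for their scores were chosen after these were seen. Counting was tested on simulated data. Python 3.11.15, numpy 2.4.6, pandas 2.3.3 and matplotlib 3.10.9 were used.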

Additional observations from a re-analysis of the deposited data

Results flagged for a closer look

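Eif5a2 had H3K27ac differences of opposite sign on 2 days. At day 9 the HDAC3-YF minus FLAG difference was -1, a peak with a score of 11.64 being called with FLAG only, and at day 13 it was 1, a peak with a score of 22.04 being called with HDAC3-YF only. With 1 library per group the difference between the days was not tested.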

How the results depend on the processing

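Over 22 counts, 155 alternative values were computed, and 126 stayed within 1.5 times the reported count while 29 did not. Counts were compared and not shares, and those at listed starts come from 44 genes, not 56. The 126 include the co-repressor counts among genes with H3K27ac in all 8 lists. There the shares were 31.8% beside 32.8% of all such genes in ESCs, and 61.4% beside 56.0% at day 9. The 29 concern counts of 0 to 9 genes for HDAC3-YF against FLAG and for ESCs against MEFs, and the co-repressor counts of ESCs and the overlaps with H3K27ac. The cause was not tested. Shares of all genes follow in brackets. With a window of 500 bp, 10 genes had an ESC co-repressor peak (10.9%) and 8 had both marks in ESCs (9.45%), and HDAC3-YF had 2 genes higher (2.59%) and 2 lower (4.37%) at day 5, and 0 higher (3.43%) and 4 lower (4.37%) at day 9. With 2.5 kb, 6 genes were higher in ESCs than in MEFs (9.77%), and HDAC3-YF gave 2 higher at day 5 (3.45%), 2 higher at day 9 (3.70%) and 2 lower at day 13 (5.85%). Counting any overlap of the interval gave 0 higher (2.53%) and 2 lower (3.92%) at day 5 and 2 lower at day 9 (4.14%). At listed starts 0 genes were higher (5.29%) and 1 lower (5.72%) in ESCs, and the HDAC3-YF counts were 0 higher (2.05%) and 0 lower (3.65%) at day 5, 0 higher at day 9 (2.72%) and 0 lower at day 13 (4.33%). Giving each peak to its nearest gene end gave 4 higher at day 5 (2.81%) and 2 lower at day 9 (4.30%). With the top 50% of scores, 1 gene was higher in ESCs (4.80%), 2 were lower at day 9 (3.63%), and 9 were higher (4.73%) and 2 lower (4.30%) at day 13. With equal numbers of peaks, 1 gene was higher (5.22%) and 1 lower (6.13%) in ESCs. Requiring intervals of both marks to overlap left 7 genes in ESCs (7.53%) and 18 at day 9 with HDAC3-YF (12.5%). No paired analysis was possible because each group has 1 library, which also leaves no replicate to omit. Depth per library is unknown, so a missing peak was only not called.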
